A study of Mus musculus with 6 samples.

Results

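The numbered zinc finger (ZNF) genes of chromosome 19 were examined in parental 22Rv1 cells and in a subline resistant to BL-B01D1. Members were the protein-coding genes on chromosome 19 whose symbol is ZNF followed by a digit, which gave 249 genes of the 58735 in the deposited table. The 22Rv1 line comes from a human prostate carcinoma xenograft, although the sample labels name mouse as the organism. BL-B01D1 is an antibody-drug conjugate that binds EGFR and HER3 and carries a camptothecin-type topoisomerase I inhibitor. RNA-Seq covered 3 libraries of parental cells given vehicle and 3 libraries of the 22Rv1 BL-B01D1_R subline, which was derived by exposure to rising concentrations of the conjugate. The resistant group is 1 subline, and nothing states that the libraries of a group came from separate cultures. All p-values therefore measure the spread between libraries, which may be technical, and not that of a repeated selection.

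Most of these genes encode C2H2 zinc finger proteins, in which each finger holds a zinc ion and several fingers in a row read out a DNA sequence. Many also carry a KRAB domain, which binds the corepressor TRIM28 (KAP1). TRIM28 in turn brings the histone H3K9 methyltransferase SETDB1, HP1 proteins (CBX1, CBX3 and CBX5) and the NuRD deacetylase complex, and many of the targets silenced this way are transposable elements. The human genes arose largely by tandem duplication and lie in clusters along chromosome 19. The deposited table assigns 239 of the 249 members to its zf-C2H2 transcription factor family, and 10 have no family entry.

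Counts on genes ranged from 13821639 to 17251491 per library, and 3 counts corresponded to between 0.174 and 0.216 CPM (counts per 1e6 TMM-scaled counts). All 12 prostate epithelial markers examined had enough counts to be tested. Of these, 7 were higher and 4 lower in resistant cells at an FDR under 0.05, against 17.1% and 18.4% of all genes tested. Of 10 markers of other cell types, 6 were too low to test and CD3E was at 0 in every library. Their summed level was 151 to 164 CPM in parental and 123 to 131 CPM in resistant libraries. Most of it came from the neuroendocrine markers SYP and CHGA. CHGA fell from 39.4 to 8.18 CPM, while SYP was at 103 and 106 CPM and did not pass (log2 fold change 0.041, edgeR FDR 0.531). The part of these differences in the results below was not tested.

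Of the 249 members, 228 passed the filter on low counts. In the resistant subline 57 of these were higher and 8 were lower at an FDR under 0.05 (quasi-likelihood test of edgeR, Benjamini-Hochberg adjustment over all 17142 genes tested). Over all genes tested, 17.1% were higher and 18.4% were lower at this FDR, whereas the shares among the tested members were 25% and 3.51%. The larger share of higher members was not found with every test. DESeq2 gave 12.7% of members higher against 13.37% of all genes, and limma on log2(FPKM + 1) gave 11.4% against 12.5%. The share was larger in edgeR without resistant library 3, at 15.6% against 14.4%, and in limma-voom, at 25% against 16.9%. The share of lower members was under that of all genes in each of these fits. In the same order it was 1.75% against 14.8%, 2.19% against 16.1%, 4.33% against 16.04% and 3.51% against 18.3%. In these bulk libraries, more RNA per cell and more cells expressing a gene cannot be told apart. The changes were small. Of the 57 higher members, 42 had a log2 fold change under 0.5, 10 lay between 0.5 and 1, and 5 exceeded 1. The log2 fold changes of tested members had a median of 0.14, with quartiles of −0.019 and 0.29, and 166 of 228 (72.8%) were above 0, against 50.6% and a median of 0.0038 for all genes tested.

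The same counts were taken for 2 other groups of genes. Among 231 tested protein-coding ZNF genes of other chromosomes, 30 were higher and 26 were lower at the same FDR, the median log2 fold change was −0.030, and 41.6% were above 0. Among 799 tested protein-coding genes of chromosome 19 that are not members, 146 were higher and 160 lower, the median was −0.012, and 47.2% were above 0. No test of the difference between these groups of genes was run, since genes of one cluster are not independent replicates.

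The shift was present in each library. After subtracting each gene's mean over the 6 libraries, the median log2 CPM of the 228 tested members was −0.051, −0.055 and −0.080 in parental libraries 1, 2 and 3. It was 0.067, 0.094 and 0.068 in resistant libraries 1, 2 and 3, so the groups did not overlap. For ZNF genes of other chromosomes the same medians lay between −0.0023 and 0.017 in parental and between −0.0086 and 0.010 in resistant libraries, and these ranges overlapped. The summed level of the tested members was 3453, 3459 and 3430 CPM in parental libraries and 3665, 3678 and 3661 CPM in resistant libraries.

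**Figure D1:**
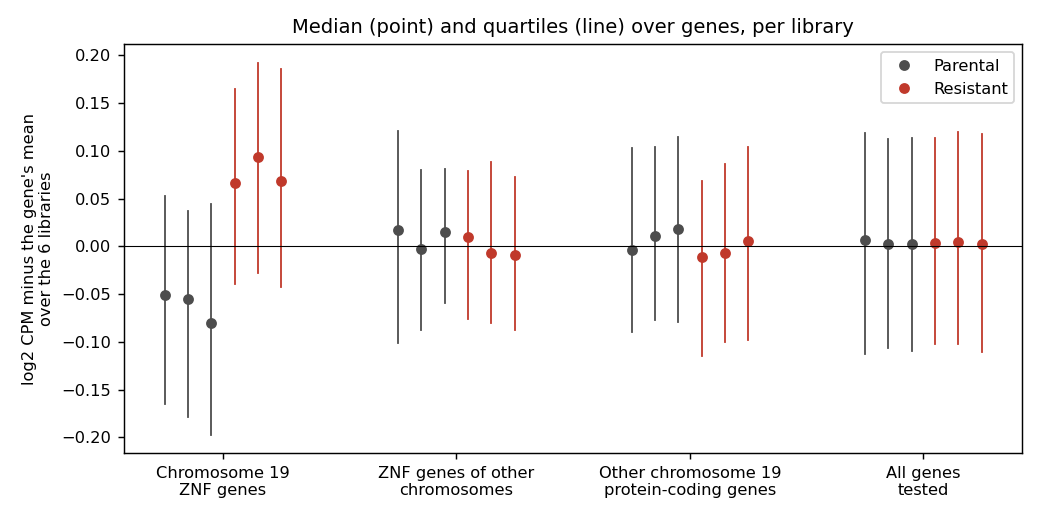
Each point is the median over genes of log2 CPM minus the gene's mean over the 6 libraries, and each line spans the quartiles over genes, for the 3 parental (gray) and 3 resistant (red) libraries in 4 groups of genes. The medians of the 228 chromosome 19 ZNF genes lie between −0.080 and −0.051 in parental and between 0.067 and 0.094 in resistant libraries, while the other 3 groups stay near 0.

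By library, 86 of the 228 tested members had all resistant libraries above all parental libraries in CPM and 15 had them all under, or 37.7% and 6.58%. Over all genes tested these shares were 22.1% and 22.8%. Among the members past the FDR threshold, 55 of the 57 higher and 7 of the 8 lower had groups that did not overlap.

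Members were expressed at low to moderate levels, with a median of 12.04 CPM and a highest mean of 98.6 CPM. In the 44 tested members under 5 CPM the median log2 fold change was 0.305, in the 130 members from 5 to 20 CPM it was 0.16, and in the 54 members over 20 CPM it was 0.041. In the other genes tested, the medians in these ranges were 0.045, 0.0068 and −0.0076. From 5 to 20 CPM, 39 members were higher and 4 lower at the FDR threshold (30% and 3.08%), compared with 17.3% and 18.4% of the other genes in that range. Over 20 CPM, 11 members were higher and 4 lower (20.4% and 7.41%), compared with 21.6% and 23.6%, so there the share of higher members was near that of other genes and the share of lower members was smaller.

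The study's methods also require a log2 fold change past 1 in either direction. With both thresholds, 5 members were called higher by edgeR, 4 by DESeq2 and 0 by limma on log2(FPKM + 1). The 5 called by edgeR are 2.19% of the tested members, near the 2.53% of all genes called higher. Adding 1 to each FPKM lowers fold changes at low levels, so a log2 fold change past 1 is hard to reach there. On that scale ZNF667 was at 0.526 (FDR 0.000695 from limma) and ZNF99 at 0.189 (FDR 0.0220 from limma). For the lower direction edgeR called 0 members against 2.84% of all genes. Likewise 0 members reached an unadjusted p of less than 0.05 with a fall of this size. Calls were also few among the 231 tested ZNF genes of other chromosomes, with 1 higher and 1 lower. limma-voom and DESeq2 also called 0 members lower. Without a filter, and in the fits without parental library 3 or without any one of the resistant libraries, 1 member was called lower (ZNF723, too low to test otherwise). The 5 became 3 without parental library 1, without parental library 2 or without resistant library 3. ZNF667 was the only one of the 5 above 2 CPM.

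ZNF667 (ENSG00000198046; chr19:56439325-56478065 of hg38, reverse strand) encodes a C2H2 zinc finger protein. It was measured at 3.42, 2.80 and 2.95 CPM in parental libraries and at 7.78, 7.95 and 9.37 CPM in resistant libraries. Every resistant library lay above every parental library by more than the spread within either group. This gave a log2 fold change of 1.45 (SE 0.17, edgeR FDR 2.04e-09), which stayed between 1.36 and 1.54 in the 6 leave-one-out fits, each made without one library. ZNF667-AS1, a noncoding gene on the opposite strand that overlaps ZNF667, had 59, 73 and 55 counts in parental libraries and 172, 128 and 155 in resistant libraries (log2 fold change 1.29, SE 0.15, edgeR FDR 3.26e-09). Strand use in the counting is not stated, so reads of the 2 genes cannot be told apart.

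The other 4 called members rested on few counts. ZNF99 had 4, 14 and 9 counts in parental and 31, 28 and 25 in resistant libraries (log2 fold change 1.63, SE 0.38), and it was called in all 6 leave-one-out fits. ZNF610 had 4, 8 and 4 counts in parental and 18, 10 and 19 in resistant libraries (1.54, SE 0.47), and its edgeR FDR was 0.0542 without parental library 1 and 0.0538 without resistant library 3. ZNF763 had 5, 3 and 8 counts in parental and 12, 16 and 15 in resistant libraries (1.41, SE 0.48). Its edgeR FDR was 0.0738 and 0.128 without parental libraries 1 and 2 and 0.0916 and 0.0571 without resistant libraries 2 and 3, and the FDR from DESeq2 on all libraries was 0.0751. ZNF846 had 13, 6 and 10 counts in parental and 26, 24 and 18 in resistant libraries (1.23, SE 0.38), with an edgeR FDR of 0.0820 without parental library 2 and of 0.0508 and 0.0534 without resistant libraries 1 and 2. In all 4 genes the groups did not overlap. With at least 10 counts required in every library, ZNF667 remained as the 1 called member.

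Below a log2 fold change of 1, the 5 higher members with the lowest FDR were ZNF473, ZNF793, ZNF558, ZNF274 and ZNF471. ZNF473 encodes ZFP100, a component of the U7 particle that processes the 3′ ends of replication-dependent histone mRNAs. It was at 42.0, 42.8 and 43.5 CPM in parental libraries and at 58.8, 62.9 and 62.3 CPM in resistant libraries (log2 fold change 0.52, SE 0.056, FDR 3.48e-10 from edgeR's test). VRK3, on the opposite strand and overlapping ZNF473, had a log2 fold change of 0.44 (SE 0.056).

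ZNF274 binds the 3′ ends of zinc finger genes and recruits SETDB1 there. Its mRNA was at 21.3, 21.1 and 21.4 CPM in parental libraries and at 31.5, 27.9 and 27.8 CPM in resistant libraries (log2 fold change 0.45, SE 0.077, FDR 7.43e-06 from edgeR's test). The SD of the parental libraries was 0.136 CPM (n = 3), and the resistant libraries were all higher. ZNF793 rose from 22.5 ± 2.96 to 34.3 ± 1.60 CPM (SD, n = 3), a log2 fold change of 0.61 (SE 0.080), and ZNF558 from 10.5 ± 0.646 to 17.1 ± 0.443 CPM (SD, n = 3), a log2 fold change of 0.71 (SE 0.10). All 5 genes passed the FDR threshold in each leave-one-out fit.

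ZNF471, at 4.93, 5.24 and 5.19 CPM in parental and 8.14, 8.84 and 9.24 CPM in resistant libraries (log2 fold change 0.77, SE 0.14), is the next member after ZNF667 along the chromosome. Its neighbours, chosen after their values were seen, were ZNF582 (0.504, SE 0.18), ZNF583 (0.37, SE 0.18) and ZNF470 (0.46, SE 0.14). ZNF582 and ZNF470 passed the FDR threshold, and ZNF583 did not (FDR 0.113 from edgeR's test). ZNF582 passed in 3 of the 6 leave-one-out fits. On the far side, ZNF71, the next member after ZNF470, was at −0.19 (SE 0.11) and did not pass (edgeR FDR 0.198), and ZNF835, the last of the cluster, was too low to test. The 9 members before these in the same cluster, from ZNF628 to ZNF444, lay between −0.14 and 0.27. Of those 9, ZNF581 passed the FDR threshold (0.27), with an edgeR FDR of 0.0674 without parental library 2. In the span of this cluster, 9 protein-coding genes that are not members were tested. Their median was 0.026, with 3 higher and 1 lower at the FDR threshold. Among them were the zf-C2H2 genes ZFP28 (0.77, higher at the FDR threshold), FIZ1 (0.12) and ZSCAN5A (−0.23).

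**Figure D2:**
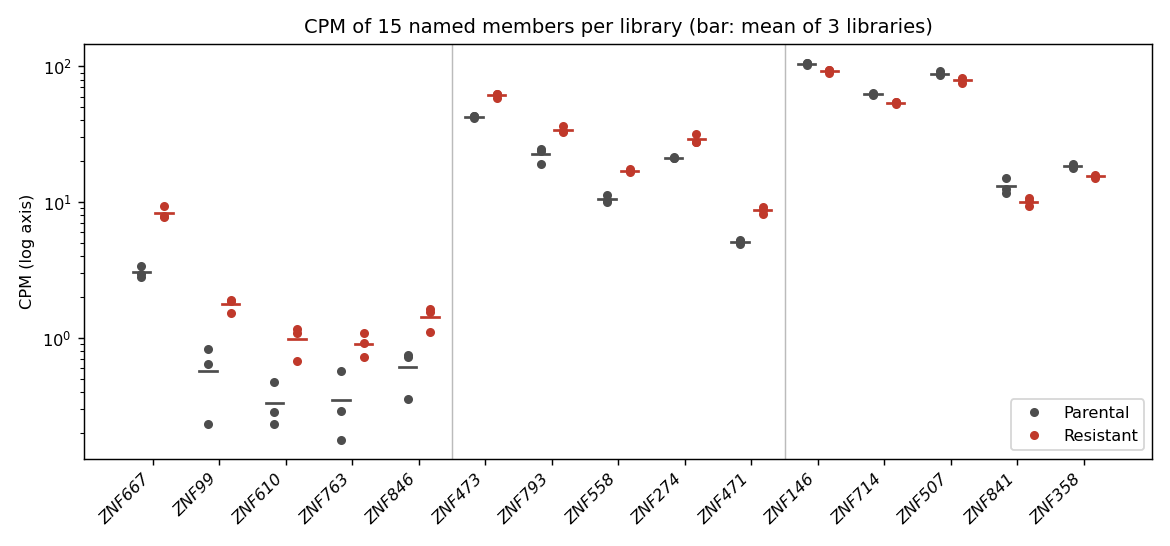
CPM on a log axis in each of the 3 parental (gray) and 3 resistant (red) libraries for the 5 called members (left), the 5 higher members with the lowest FDR and a log2 fold change of at most 1 (middle) and the 5 lower members with the lowest FDR (right), with bars at the mean of 3 libraries. The groups do not overlap in any of the 15 genes, and 4 of the 5 called members are under 2 CPM.

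Of the 8 lower members, ZNF146 and ZNF714 passed in all 6 leave-one-out fits. ZNF146 encodes a protein made almost entirely of zinc fingers, without a KRAB domain, and was the member with the highest level per transcript length (23.7 FPKM, counts per kilobase of gene and 1e6 counts). It was at 106, 106 and 102 CPM in parental libraries and at 94.5, 93.5 and 89.3 CPM in resistant libraries (log2 fold change −0.18, SE 0.042, FDR 0.000549 from edgeR's test). ZNF714 fell from 62.7 ± 0.62 to 54.0 ± 1.29 CPM (SD, n = 3), a log2 fold change of −0.21 (SE 0.052). ZNF507 (−0.15), ZNF841 (−0.37), ZNF358 (−0.25), ZNF730 (−0.33), ZNF100 (−0.19) and ZNF114 (−0.39) each lost the call in at least 1 of these fits, ZNF100 and ZNF114 in 3. The groups of ZNF100 overlapped. The edgeR FDR was 0.0835 for ZNF507 without parental library 2 and 0.103 without resistant library 1, and 0.111 and 0.0600 for ZNF841 without parental library 3 and resistant library 1. For ZNF358 it was 0.0749 and 0.0511 without parental libraries 1 and 2 and 0.0831 and 0.0526 without resistant libraries 1 and 2. ZNF730 passed in 1 of the 6 fits, and its FDR reached 0.305 without parental library 1.

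The counts of members past the FDR threshold moved with single libraries. The 57 higher members became 36 without resistant library 3, and ranged up to 49 when another library was left out. The 8 lower members became 5 without parental library 1, 3 without parental library 2 and 4 without resistant library 1. In each of the 6 fits more members were higher than lower, and 19 higher and 2 lower members passed in all of them.

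Ordered by gene start, neighbouring members with starts at most 500 kb apart were joined, which placed 235 of the 249 members in 10 clusters of at least 5 members. The log2 fold changes of 208 pairs of neighbouring tested members had a Spearman correlation of 0.218, given as a description, since neighbours share libraries and paralogous sequence. Summed over the tested members of a cluster, the resistant libraries were all above the parental libraries in 8 of the 10 clusters. Of the 14 members outside the clusters, 13 were tested, 6 of them were above 0, and the median was −0.12. At the FDR threshold 5 were higher (38.5%) and 3 lower (23.1%), against 17.1% and 18.4% of all genes tested. Their summed level was 286 to 291 CPM in parental and 296 to 305 CPM in resistant libraries.

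**Figure D3:**
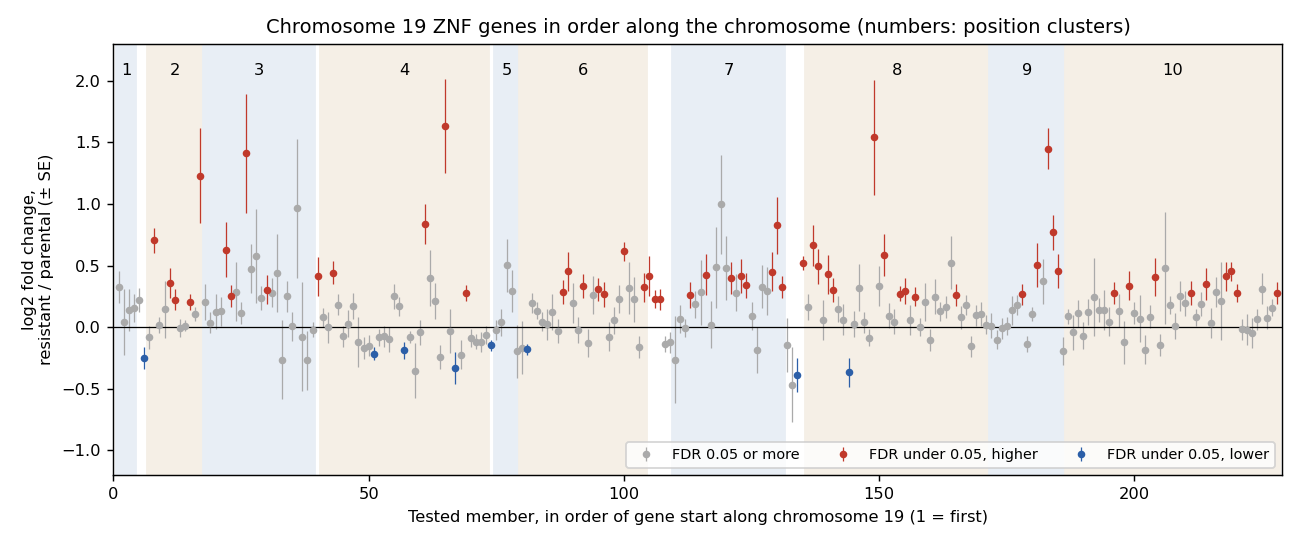
Log2 fold change (resistant over parental, ± SE) of the 228 tested members in their order along chromosome 19, with shading and numbers for the 10 position clusters and color for members past the FDR threshold (57 higher in red, 8 lower in blue). Higher members are spread over 8 of the 10 clusters, and points in the cluster numbered 4 lie mostly just under 0.

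The cluster from ZNF575 to ZNF180 (chr19:43525497-44500524 of hg38) had the highest median log2 fold change, 0.307 over 22 tested members. In it, 19 members were above 0. At the FDR threshold 8 were higher (36.4%) and 0 lower, against 17.1% and 18.4% of all genes tested. Its summed level was 159, 158 and 160 CPM in parental libraries and 193, 184 and 180.0 CPM in resistant libraries. ZNF229 had the highest log2 fold change past the threshold (0.83, SE 0.23), although its edgeR FDR was 0.0607 without resistant library 1, and ZNF283 the lowest (0.26, SE 0.10), which passed in 1 of the 6 leave-one-out fits and had an edgeR FDR of up to 0.121, without resistant library 2. ZNF224, a KRAB zinc finger repressor, was at 7.77, 8.93 and 7.56 CPM in parental libraries and at 11.8, 11.6 and 8.75 CPM in resistant libraries. Its groups overlapped, its log2 fold change was 0.40 (SE 0.13), and its edgeR FDR rose from 0.0132 to between 0.0554 and 0.0947 without parental library 3, resistant library 1 or resistant library 2. The 7 other protein-coding genes tested in this span had a median of −0.0047.

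The cluster with the most members, from ZNF264 to ZNF446 near the end of the long arm (chr19:57191500-58481230), had 34 of 42 tested members above 0 and a median of 0.14. At the FDR threshold 9 were higher (21.4%, near the 17.1% of all genes tested) and 0 were lower, against 18.4% of all genes. ZNF274 and ZNF446 (0.28, SE 0.091) marked the ends of the range among its higher members. The edgeR FDR of ZNF446 was 0.0607, 0.0585 and 0.0894 without parental library 1, parental library 3 and resistant library 3. The 10 other protein-coding genes tested in this span had a median of 0.16. Among them were the zf-C2H2 genes ZSCAN18 (1.54), ZIK1 (0.22) and ZSCAN22 (0.12). The cluster from ZNF175 to ZNF331 (chr19:51571298-53580269) had 32 of 36 above 0, 10 higher (27.8%) and 1 lower (2.78%), and a median of 0.155. The 2 other protein-coding genes tested in its span had a median of −0.17, and 0 passed. The cluster from ZNF565 to ZNF573 (chr19:36182060-37817300) had 18 of 25 above 0, 7 higher (28%) and 1 lower (4%), and a median of 0.19. The 4 other protein-coding genes tested in its span were all above 0, with 2 higher and 0 lower at the FDR threshold and a median of 0.21. All 4 are themselves zf-C2H2 genes under other symbols, namely ZFP14 (0.36), ZFP82 (0.24), HKR1 (0.17) and ZFP30 (0.11). This span therefore gave no comparison with protein-coding genes of other families. On the short arm, the clusters from ZNF414 to ZNF846 and from ZNF653 to ZNF791 had 5 of 11 and 4 of 22 tested members higher at the FDR threshold, with medians of 0.15 and 0.24. The first of these counts is 45.5% of the tested members and the second is 18.2%, near the 17.1% of all genes. In the first span 1 other protein-coding gene was tested and did not pass. In the second span 4 were tested, among them the zf-C2H2 gene AC010422.6 (0.11), with 1 higher at the FDR threshold and a median of 0.11. In these clusters, ZNF561 (0.20, SE 0.066) and ZNF440 (0.25, SE 0.088) were the lowest of the higher members. The edgeR FDR of ZNF440 was 0.102, 0.0721 and 0.0554 without parental library 3, resistant library 2 and resistant library 3.

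The cluster from ZNF101 to ZNF254 (chr19:19668796-24129961), which lies next to the centromere on the short arm, was the 1 cluster with a median below 0. Of its 33 tested members, 12 were above 0, the median log2 fold change was −0.075, and 4 were higher and 3 lower at the FDR threshold. These shares, 12.1% and 9.09%, were under the 17.1% and 18.4% of all genes tested. Its summed level was 667, 675 and 662 CPM in parental libraries and 648, 651 and 666 CPM in resistant libraries, and these overlapped. The higher members were ZNF99, ZNF676 (0.83, SE 0.16), ZNF506 (0.44, SE 0.092) and ZNF91. ZNF91, a repressor of SVA retrotransposons, was at 35.3, 34.3 and 37.0 CPM in parental and at 43.2, 42.9 and 42.8 CPM in resistant libraries (log2 fold change 0.28, SE 0.062, FDR 0.000426 from edgeR's test). ZNF93, which represses LINE-1 elements, was at 20.1 ± 0.38 and 19.1 ± 1.73 CPM (SD, n = 3), and its log2 fold change of −0.075 (SE 0.086) did not pass the test and ranged from −0.15 to −0.033 in the leave-one-out fits. Too few other protein-coding genes lie in this span for a comparison, since 0 of 2 had enough counts to be tested.

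**Figure D4:**
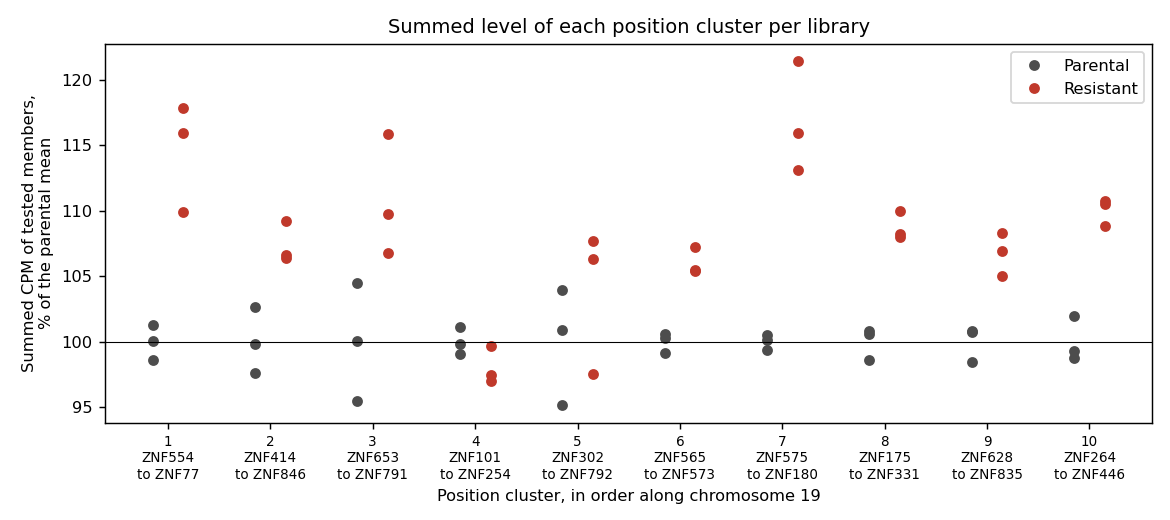
Summed CPM of the tested members of each position cluster in each library, as a percentage of the mean of the 3 parental libraries, in order along chromosome 19. Resistant libraries (red) lie above all parental libraries (gray) in 8 clusters and overlap them in the cluster from ZNF101 to ZNF254 and in that from ZNF302 to ZNF792.

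Several members with known roles did not pass the test. ZNF331, an imprinted gene, was at 26.2 ± 1.26 and 26.6 ± 1.85 CPM (SD, n = 3; log2 fold change 0.019, SE 0.076). ZNF382, a KRAB repressor, was at 9.18 ± 1.03 and 9.28 ± 0.755 CPM (0.021, SE 0.13). ZNF304, also a KRAB protein, had a log2 fold change of 0.12 (SE 0.11), which was 0.039 without parental library 2 and 0.215 without resistant library 3. ZNF154, a gene often methylated in tumors, had 12, 5 and 9 counts in parental and 9, 15 and 12 in resistant libraries (0.48, SE 0.46, and 0.17 to 0.72 in the leave-one-out fits), so a change of moderate size was not detectable at this depth. After ZNF146, the members with the highest FPKM were ZNF428 (16.4), ZNF524 (12.6), ZNF121 (12.6) and ZNF787 (11.0). None of these 4 passed edgeR's test, and their log2 fold changes lay between −0.14 and 0.012.

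Of the 21 members not tested, 6 had 0 counts in every library, ZNF90, ZNF486 and ZNF626 among them, which allows up to 0.216 CPM in the shallowest library. The other 15 had at most 21 counts in any library. All 3 readthrough members that join neighbouring zinc finger genes were in this group. Members are close paralogs of each other, so reads shared between near-identical copies may have been lost or assigned to the wrong copy. Of the 65 members past the FDR threshold, 26 overlap a gene on the opposite strand with at least 0.2 CPM, and reads of the overlap cannot be told apart where counting ignored strand.

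Several corepressor genes through which KRAB proteins act were lower in resistant cells. Of 20 genes of the TRIM28 and NuRD machinery, all tested, 9 were lower at the FDR threshold and 0 were higher. The shares of all genes tested were 18.4% and 17.1%. Most of the 20 were over 20 CPM, where 23.6% of genes other than members were lower and 21.6% higher. The median log2 fold change of the 20 was −0.078. At an unadjusted p of less than 0.05, 11 were lower and 0 higher in edgeR, and limma-voom and DESeq2 gave 9 and 7 lower and 0 higher at their FDR thresholds. The HP1 genes CBX1, CBX3 and CBX5, which bind methylated H3K9, were all lower, with log2 fold changes of −0.17 (SE 0.039), −0.14 (SE 0.031) and −0.15 (SE 0.025). CBX5 was at 686, 707 and 681 CPM in parental libraries and at 617, 628 and 627 CPM in resistant libraries. The NuRD subunits RBBP4 (−0.14), RBBP7 (−0.17), MTA1 (−0.15), MTA2 (−0.094) and GATAD2B (−0.203) were lower by similar amounts, although MTA2 passed in only 1 of the 6 leave-one-out fits, with an edgeR FDR of up to 0.148, without resistant library 3.

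TRIM28 was at 749, 653 and 659 CPM in parental libraries and at 655, 625 and 651 CPM in resistant libraries. Parental library 1 stood above the rest, and the groups overlapped. TRIM28 had a log2 fold change of −0.094 (SE 0.033, edgeR FDR 0.0219) and of −0.026 without parental library 1 (FDR 0.504), and the FDR was 0.159 without resistant library 2. SETDB1 did not pass (0.0046, SE 0.058).

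Of 21 tested genes that write or read heterochromatin marks, 8 were lower and 1 was higher at the same FDR, with a median of −0.057. The shares were 18.4% and 17.1% of all genes tested. They were 23.6% and 21.6% of genes other than members over 20 CPM, the range of most of these 21. DNMT1, the maintenance DNA methyltransferase, was at 371, 388 and 383 CPM in parental libraries and at 334, 321 and 313 CPM in resistant libraries (log2 fold change −0.24, SE 0.030), and its partner UHRF1 fell by a like amount (−0.25, SE 0.038). FAM208A, the gene of the HUSH complex subunit TASOR, was the higher one (0.18, SE 0.040). SUV39H2, EHMT2, DNMT3B, MORC2, HELLS and CDCA7 were lower (−0.28 to −0.11), and each of them lost the call in at least 1 leave-one-out fit. The highest edgeR FDR in these fits was 0.0599 for SUV39H2, 0.148 for EHMT2 and 0.134 for HELLS without parental library 2, 0.085 for DNMT3B without resistant library 2, 0.0571 for MORC2 without resistant library 3 and 0.106 for CDCA7 without parental library 1. Of 12 H3K9 demethylase and TET genes, KDM4B (0.25) was higher, KDM7A (−0.21) was lower and 10 did not pass. These 2 counts of 1 in 12 are under the 17.1% and 18.4% of all genes tested.

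**Figure D5:**
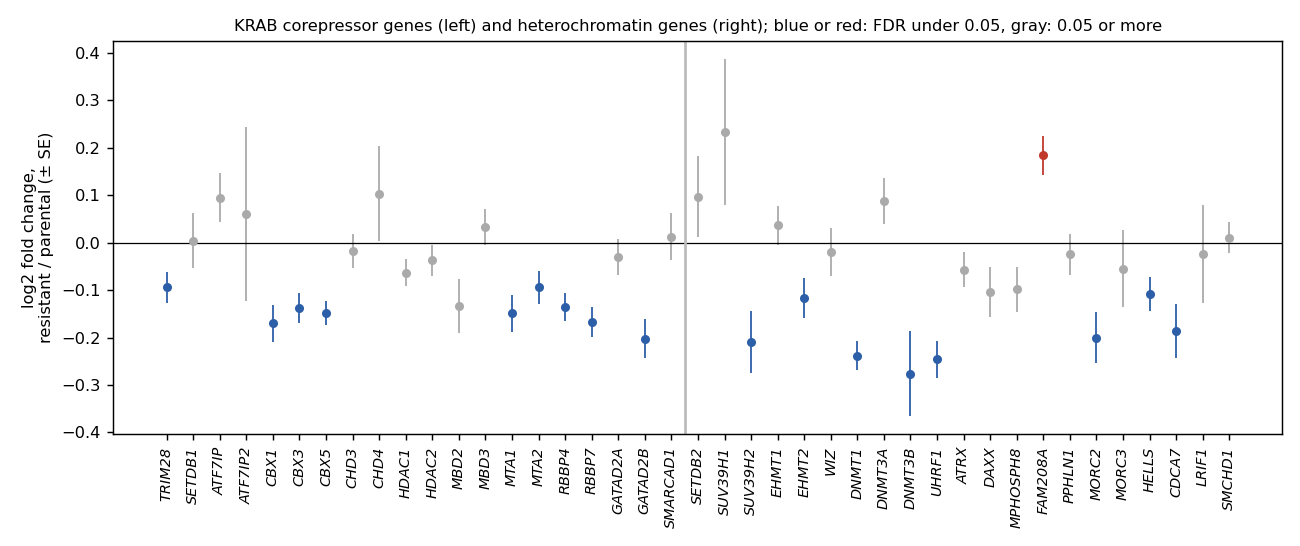
Log2 fold change (resistant over parental, ± SE) of the 20 KRAB corepressor genes (left of the line) and 21 heterochromatin genes (right), with color for genes past an FDR of 0.05. On the left 9 genes are lower and on the right 8 are lower and FAM208A is higher, with values from −0.28 to 0.23 over both lists.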

How the data were processed

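RNA-Seq counts of 6 libraries (3 parental, 3 resistant), grouped by the sample labels, were analysed. The authors trimmed reads with fastp, mapped them to hg38 with HISAT2 (version 2.0.5), counted them per gene with featureCounts (version 1.5.0-p3) and deposited raw counts with gene position, length (another quantity, in bases) and biotype. The annotation release, strand setting and treatment of multimapping reads are not given in the sources used here. The number of unused columns of per-sample values was 0. Starting from these deposited counts, filterByExpr removed low genes, TMM scaled the libraries, and the quasi-likelihood test of edgeR (4.0.16, in R 4.3.3) was run on all genes left, and rows of the members were then read out. The SE is the log2 fold change divided by the square root of F. FPKM used total counts and the listed length.

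Members and lists were chosen with earlier results of these data known. Named members are those called, the 5 with the lowest FDR in each direction among the rest, the 5 with the highest FPKM, the extremes of each cluster and 10 with known roles. Of the lists' genes, those past the FDR threshold, TRIM28 and SETDB1 are named. ZNF676, ZNF506, ZNF100, ZNF114, ZNF723, ZNF71, ZNF835 and the neighbours of ZNF667 were named outside this rule, after their values were seen. Alternatives were DESeq2 (1.42.0), limma-voom with limma 3.58.1, limma on log2(FPKM + 1), at least 10 counts in every library, no filter, library size alone, glmTreat, protein-coding genes only, a replicate block and each library left out. On simulated counts for 16862 genes, edgeR recovered 87 of 100 genes changed by a log2 value of 1 and 100 of 100 changed by 2, with 15 false calls at an FDR of 0.05. The changed genes all had a mean over 1 CPM, and the simulated spread depended on level alone. Smaller changes were not simulated, so these rates do not cover changes under a log2 value of 1 or genes under 1 CPM. The planned protein and promoter features were not computed, since no human sequence was used here.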

Additional observations from a re-analysis of the deposited data

How the results depend on the processing

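The alternatives were set with earlier results of these data known. The 5 members called higher became 0 with limma on log2(FPKM + 1), 1 with at least 10 counts in every library and 0 with glmTreat, with a leave-one-out range of 3 to 5. The 0 members called lower became 1 without a filter (ZNF723, with 16, 11 and 8 counts in parental and 4, 3 and 3 in resistant libraries) with a leave-one-out range of 0 to 1. ZNF723 was again the 1 gene, in the fits without parental library 3 and without each resistant library. The 57 members higher at the FDR threshold became 29 with DESeq2, 26 with limma on log2(FPKM + 1) and 0 with glmTreat, which tests against a log2 fold change of 1, with a leave-one-out range of 36 to 49. With DESeq2 and with limma on log2(FPKM + 1) the shares of higher members, 12.7% and 11.4%, were under those of all genes, 13.37% and 12.5%. The 8 lower members became 4, 5 and 0 under the same settings and ranged from 3 to 10. Protein-coding genes only gave 71 higher and 8 lower. The list genes at the FDR threshold, 5 higher and 22 lower, became 0 and 1 with glmTreat with leave-one-out ranges of 4 to 7 and 16 to 19. The members' median, 0.14, was 0.084 with limma on log2(FPKM + 1), 0.12 with library size alone and 0.13 to 0.16 in the leave-one-out fits. With library size alone the median of all genes was −0.012. The added 1 in log2(FPKM + 1) lowers fold changes at low FPKM, and no further cause of these changes was tested.

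Signs reversed for named members that did not pass the test. ZNF121 was −0.0034 with limma on log2(FPKM + 1) and −0.0037 with library size alone, and −0.014 to 0.047 in the leave-one-out fits. ZNF428 was 0.0066 and ZNF524 was 0.0025 with protein-coding genes only, and their leave-one-out ranges were −0.039 to 0.035 and −0.034 to 0.019. ZNF382 ranged from −0.064 to 0.095 and ZNF331 from −0.030 to 0.072. Replicate numbers are shared between the groups, but the deviations of same-numbered libraries from their group means had correlations of −0.020 to −0.0081. No deviation shared by number was therefore seen, and whether same-numbered libraries were paired is not stated. With the replicate number as a block, 59 members were higher and 7 lower, 5 were called higher, 0 were called lower, 5 and 21 list genes were past the threshold and the median was 0.14.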

Other observations

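Chromosome 19 also holds 28 genes that the deposited table assigns to its zf-C2H2 family under other symbols, and 16 of them were tested. In these, 4 were higher (25%) and 1 lower (6.25%) at an FDR of less than 0.05 in edgeR's test. The shares of all genes tested were 17.1% and 18.4%. Of the 16, 11 were above 0 (68.75%, against 50.6% of all genes), with a median log2 fold change of 0.12. ZSCAN18, in the span of the ZNF264 to ZNF446 cluster, was at 2.55, 1.61 and 1.73 CPM in parental libraries and at 5.13, 5.98 and 6.16 CPM in resistant libraries (log2 fold change 1.54, SE 0.206). ZFP28, which starts just after ZNF471, was at 4.64, 3.39 and 4.47 CPM in parental and at 7.60, 5.98 and 7.70 CPM in resistant libraries (0.77, SE 0.17). ZFP14 (0.36) and HKR1 (0.17) were also higher, and the imprinted gene PEG3 was lower (−0.27, SE 0.097), although PEG3 passed in only 2 of the 6 leave-one-out fits, with an edgeR FDR of up to 0.102, without parental library 2. PEG3 was the 1 gene tested of 5 imprinted genes of the same region.

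Of 18 genes derived from retroviruses or retrotransposons, 12 were tested, and 3 were higher and 3 lower at the same threshold, against 17.1% and 18.4% of all genes tested. PEG10, an imprinted gene of retrotransposon origin, was at 1354, 1338 and 1338 CPM in parental and at 1484, 1526 and 1505 CPM in resistant libraries (log2 fold change 0.16, SE 0.022), and RTL8C rose by a like amount (0.22, SE 0.054). ERVH48-1 (0.91, SE 0.34) was higher at under 2 CPM and passed in 1 of the 6 leave-one-out fits, with an edgeR FDR of up to 0.148, without parental library 2. ERVMER34-1 (−0.39, SE 0.093) and RTL6 (−0.13, SE 0.052) were lower, and RTL6 passed in 1 of those 6 fits, with an edgeR FDR of up to 0.297, without parental library 1. ARC, whose product forms capsid-like particles in neurons, fell from 5.66 to 1.10 CPM (−2.36, SE 0.23). Counts of transposable elements themselves were not analysed here.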
